A study of Mus musculus with 12 samples.

Results

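Each gene was asked whether the E2f8 label and the Rb label, when present together, gave the signal that their separate differences from wild type add up to. All 12 of the 12 arrays in the series entered this comparison, 3 for each of 4 genotype labels: wild type (WT), E2f8 KO, Rb KO and the combined Rb;E2f8 KO (DKO). Every array read RNA of Ter119-positive, CD71-high spleen cells, a gate for erythroid precursors, from mice aged 3 months. Strain, sex, the form of the knockout alleles and any promoter that drives a recombinase are, in the sources used here, not given. The interaction was taken as (DKO minus Rb KO) minus (E2f8 KO minus WT) on log2 group means, with its error from 1 linear model of the 4 groups. It equals the DKO level minus an additive level, which is E2f8 KO plus Rb KO minus WT. A positive value means that DKO lay above the additive level, and a negative value that it lay below. Adding log2 differences multiplies fold changes, so that the additive level is that of multiplied folds.

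Rb1 encodes the retinoblastoma protein, which binds activating E2F transcription factors and holds back genes of the G1/S transition. E2f8 encodes an atypical E2F that binds similar promoter elements without a DP partner and represses transcription. Both act in erythroblasts as these cells pass through their last divisions, condense their nuclei and fill with hemoglobin.

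The signals of both targeted genes run against some labels. Rb1 was at log2 signals of 13.02, 12.74 and 12.71 among WT arrays, 11.74, 11.68 and 11.72 in the E2f8 KO arrays, 12.53, 12.33 and 12.39 in the Rb KO arrays and 12.23, 11.98 and 12.17 in the DKO arrays. It was thus lowest in the 3 arrays labelled E2f8 KO. E2f8 had signals of 12.28, 11.70 and 11.88 among WT arrays, 12.89, 12.81 and 12.74 in the E2f8 KO arrays, 12.36, 12.52 and 11.68 in the Rb KO arrays and 13.13, 13.17 and 13.09 in the DKO arrays. It was above every WT array in the 3 arrays labelled E2f8 KO. Both were measured by a single probe set, and without its place relative to the deletion the signals may check nothing. Genotype names are therefore labels of arrays throughout. The interaction and the additive level enter E2f8 KO and Rb KO alike, so that both keep their value if these 2 labels are exchanged.

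Several facts of the whole series bear on the values below. The list of erythroid markers had a mean log2 signal between 12.20 and 13.04 in the 12 arrays. Markers of B cells (17 measured genes) averaged 11.10 ± 0.69 (SD, n = 3) in WT, 8.11 ± 0.19 in E2f8 KO, 11.30 ± 1.25 in Rb KO and 6.89 ± 0.58 in DKO. Within Rb KO, replicate 1 lay at 9.86 and the highest array at 12.05. The median standard deviation of a gene was 0.25 in WT, 0.12 in E2f8 KO, 0.22 in Rb KO and 0.18 in DKO, while the model uses 1 common spread. Xist read 5.22 (E2f8 KO, replicate 3) and 3.99 (DKO, replicate 3), while the other 10 arrays ran from 11.30 to 12.18. In bulk RNA, fewer cells of a type and less RNA per cell cannot be told apart. The labels call the arrays biological replicates, and p-values measure the spread between these arrays.

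In most genes DKO could not be told from the additive level, and 10 genes departed from it by the test. Of 12980 genes, 7 lay above the additive level (0.0539%) and 3 below (0.0231%) at an adjusted p under 0.05 (limma, Benjamini-Hochberg over all genes, two-sided). The genes above were Klhl7, Mid1, Tnfrsf10b, Eda2r, Fhl1, Podxl and Snx16, and those below were Ccng2, Syt14 and Ephx3. Their interactions ran from 1.55 to 3.78 above and from -1.67 to -1.44 below on the log2 scale. At an unadjusted p under 0.05 there were 740 genes (5.7%), 427 above (3.29%) and 313 below (2.41%). An interaction of at least 1 in size, or 2-fold, was seen in 185 genes (1.43%). The median interaction of all genes was 0.00, and 5% of genes lay below -0.50 and 5% above 0.55. The median standard error was 0.26, against 0.18 for a difference between 2 groups, because an interaction carries the error of 4 means. In 9569 genes (73.7%) the whole 95% interval lay between -1 and 1, which limits any departure to less than 2-fold. The remaining genes, which include the 10 called, have intervals that reach beyond this range.

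**Figure D1:**
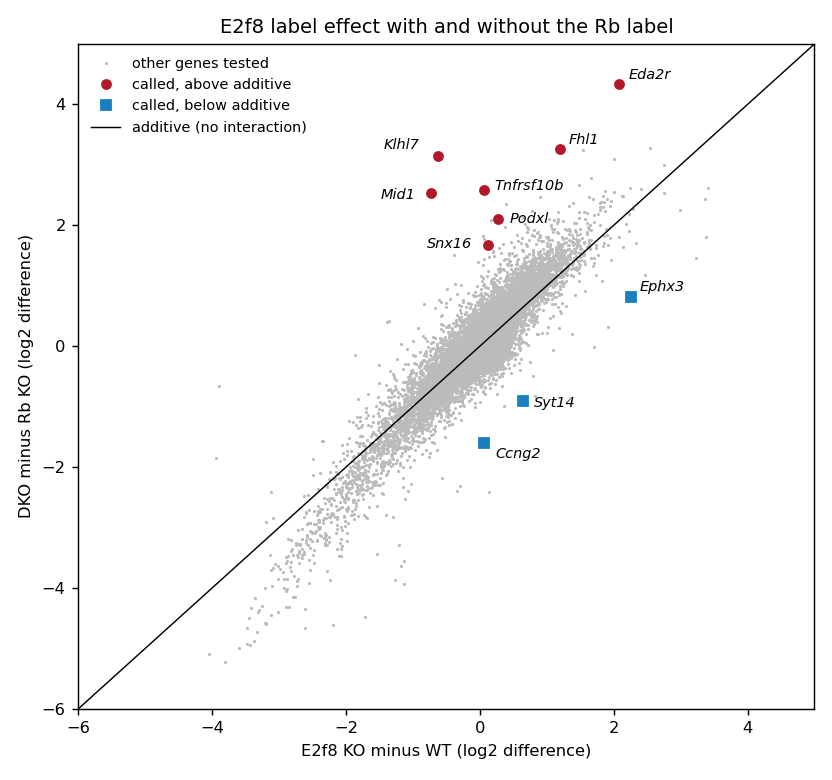
Log2 difference of E2f8 KO from WT (x axis) and of DKO from Rb KO (y axis) for 12980 genes, between which no array is shared. Genes on the line are additive. The 7 genes called above the line and the 3 called below are marked, and the cloud follows the line. Distance from the line alone did not decide a call. Of 185 genes with an interaction of at least 1 in size, 10 were called.

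The E2f8 label differed from its control in 3388 genes (26.1%) without the Rb label and in 4819 genes (37.1%) with it. The Rb label did so in 1 gene (0.0077%) without the E2f8 label and in 308 genes (2.37%) with it. A gene called in one background and not in the other is not thereby shown to differ, and the interaction, called in 10 genes (0.077%), is the test of that difference. Across genes the differences E2f8 KO minus WT and DKO minus Rb KO, which share no array, had a Pearson's r of 0.91 and a Spearman's rho of 0.83. Rb KO minus WT and DKO minus E2f8 KO, which also share none, had 0.40 and 0.33. Genes are not independent replicates, and no test was made of these values. The standard deviation across genes was 0.68 for E2f8 KO minus WT, 0.83 for DKO minus Rb KO, 0.22 for Rb KO minus WT and 0.38 for DKO minus E2f8 KO. Differences were therefore spread more widely in the presence of the other label in both cases.

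In 2 of the 10 genes, Klhl7 and Mid1, the labels gave an additive level below WT while DKO lay above it. Klhl7 encodes a Kelch protein that brings substrates to a Cullin-3 ubiquitin ligase. Its log2 signals were 6.25, 6.50 and 5.88 among WT arrays, 5.73, 5.48 and 5.52 in the E2f8 KO arrays, 5.98, 6.29 and 6.24 in the Rb KO arrays and 9.93, 9.04 and 8.99 in the DKO arrays. The 3 DKO arrays stood far above all others, E2f8 KO was lowest without overlap, and WT and Rb KO overlapped. The additive level was 5.54, and the interaction was 3.78 ± 0.33 (SE, n = 3 per group, adjusted p = 0.000465), or 13.7-fold. The additive level and the 3 E2f8 KO arrays lie below 5.84, the level that served as a filter on mean signal, so that this fold is set against a signal near the floor. Mid1, of an X-linked ubiquitin ligase bound to microtubules, was at 7.53, 7.78 and 7.18 among WT arrays, 6.75, 6.96 and 6.60 in the E2f8 KO arrays, 6.56, 7.57 and 7.24 in the Rb KO arrays and 10.19, 9.28 and 9.50 in the DKO arrays. All DKO arrays lay above the 9 others. The interaction was 3.26 ± 0.40 (adjusted p = 0.00831) from an additive level of 6.39. Against WT, from which 4952 genes (38.2%) differed in DKO, Klhl7 rose by 3.11 ± 0.24 and Mid1 by 2.16 ± 0.28 in DKO (adjusted p = 3.37e-06 and 0.000120). The single labels gave Klhl7 differences of -0.63 ± 0.24 (E2f8 KO) and -0.04 ± 0.24 (Rb KO), and Mid1 differences of -0.73 ± 0.28 and -0.37 ± 0.28, none of which passed the test. Without replicate 1 of WT, Mid1 had an adjusted p of 0.0514.

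**Figure D2:**
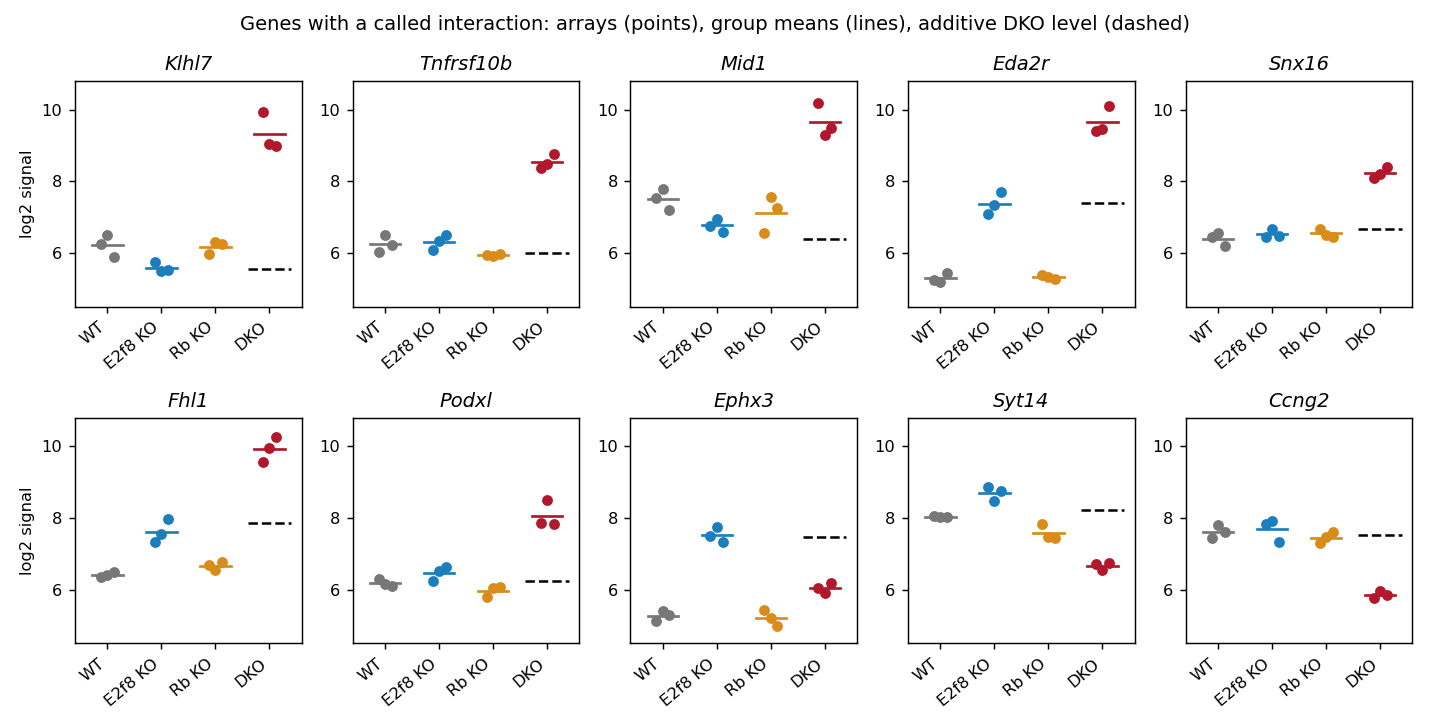
Log2 signal of the 10 genes with a called interaction, with 1 point per array, group means as lines and the additive DKO level dashed. In the first 7 panels the 3 DKO arrays lie above the dashed level, and in the panels of Ephx3, Syt14 and Ccng2 they lie below it.

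Eda2r and Fhl1 were more than additive in the upward direction. Eda2r encodes a receptor of the tumor necrosis factor family and is a known p53 target. Its signals were 5.24, 5.18 and 5.45 among WT arrays, 7.08, 7.34 and 7.70 in the E2f8 KO arrays, 5.37, 5.33 and 5.26 in the Rb KO arrays and 9.40, 9.46 and 10.10 in the DKO arrays. The E2f8 KO arrays lay between the other groups with no overlap, and WT and Rb KO lay below the filter level of 5.84. DKO exceeded WT by 4.36 ± 0.20 where the labels added to 2.11, an interaction of 2.25 ± 0.28 (adjusted p = 0.00841). Fhl1, of a LIM-domain protein abundant in muscle, stood at 6.36, 6.41 and 6.48 among WT arrays, 7.32, 7.56 and 7.96 in the E2f8 KO arrays, 6.69, 6.54 and 6.76 in the Rb KO arrays and 9.57, 9.95 and 10.25 in the DKO arrays. The groups WT, Rb KO, E2f8 KO and DKO followed each other in that order without overlap. The interaction was 2.06 ± 0.28 (adjusted p = 0.0139). Eda2r was at an adjusted p of 0.0514 without replicate 1 of WT. Fhl1 was above 0.05 without 6 of the 12 arrays in turn (replicates 1 and 3 of WT, 1 and 2 of E2f8 KO, 2 of Rb KO and 2 of DKO), with an adjusted p of at most 0.0652.

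In Tnfrsf10b, Podxl and Snx16 the labels added to less than 0.5 in either direction, and DKO alone stood high. Tnfrsf10b encodes the death receptor of the ligand TRAIL and is also a p53 target. Its signals were 6.02, 6.51 and 6.22 among WT arrays, 6.07, 6.34 and 6.51 in the E2f8 KO arrays, 5.95, 5.93 and 5.96 in the Rb KO arrays and 8.36, 8.48 and 8.75 in the DKO arrays. All 9 arrays of the other groups lay within 5.93 to 6.51. The interaction was 2.53 ± 0.23 (adjusted p = 0.000465), or 5.77-fold, and it stayed past the threshold in each of the 27 alternative settings in which the gene was tested. Podxl, of the sialomucin podocalyxin, known as an erythropoietin target in erythroid cells, was at 6.30, 6.16 and 6.10 among WT arrays, 6.25, 6.51 and 6.64 in the E2f8 KO arrays, 5.78, 6.05 and 6.07 in the Rb KO arrays and 7.86, 8.50 and 7.83 in the DKO arrays. The DKO arrays were the highest and those of Rb KO the lowest, and the interaction was 1.82 ± 0.26 (adjusted p = 0.0176). Snx16, a sorting nexin gene of endosomes, was at 6.45, 6.55 and 6.19 among WT arrays, 6.44, 6.65 and 6.48 in the E2f8 KO arrays, 6.68, 6.51 and 6.45 in the Rb KO arrays and 8.08, 8.19 and 8.41 in the DKO arrays. The 3 groups other than DKO overlapped in Snx16, and the interaction was 1.55 ± 0.21 (adjusted p = 0.0124). Podxl was not called without replicates 1 or 3 of WT, 1 or 2 of E2f8 KO, or 2 of Rb KO (adjusted p of at most 0.0824). Snx16 was not called without replicate 1 of WT, 1 of E2f8 KO or 2 of Rb KO (adjusted p of at most 0.0652), nor without both arrays low in Xist (0.0935).

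Of the 3 genes below the additive level, Ephx3 was less than additive and Ccng2 and Syt14 fell in DKO. Ephx3 encodes an epoxide hydrolase. Its signals were 5.12, 5.40 and 5.29 among WT arrays, 7.50, 7.75 and 7.32 in the E2f8 KO arrays, 5.44, 5.21 and 4.99 in the Rb KO arrays and 6.03, 5.89 and 6.17 in the DKO arrays. DKO lay above WT and below E2f8 KO in every array, with WT and Rb KO below the filter level, an additive level of 7.47 and an interaction of -1.44 ± 0.21 (adjusted p = 0.0181). The gene, with an overall mean of 6.01, passed the filter only through its high E2f8 KO arrays, and its other signals lie near the floor. Ccng2, of the unconventional cyclin G2, known for its rise in arrested cells, was at 7.45, 7.80 and 7.60 among WT arrays, 7.82, 7.92 and 7.32 in the E2f8 KO arrays, 7.30, 7.46 and 7.60 in the Rb KO arrays and 5.76, 5.96 and 5.84 in the DKO arrays. The 3 DKO arrays lay under the 9 others, which overlapped, and the interaction was -1.67 ± 0.25 (adjusted p = 0.0181). Syt14, of a synaptotagmin family protein of membrane traffic, was at 8.06, 8.03 and 8.02 among WT arrays, 8.86, 8.46 and 8.74 in the E2f8 KO arrays, 7.82, 7.46 and 7.44 in the Rb KO arrays and 6.72, 6.54 and 6.74 in the DKO arrays. It rose by 0.65 ± 0.16 in E2f8 KO (adjusted p = 0.0122) and fell by 1.37 ± 0.16 in DKO (adjusted p = 6.05e-05), with an interaction of -1.56 ± 0.23 (adjusted p = 0.0181). Leaving out single arrays ended the call of Ccng2 in 8 of 12 cases, of Syt14 in 7 and of Ephx3 in 6, with adjusted p of at most 0.0943. Without both arrays low in Xist, Syt14 was at 0.155. Normalization also ended 1 call each, that of Ephx3 with arrays centred on their median (adjusted p = 0.0556) and that of Syt14 with quantile normalization (0.0559).

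For each called gene, every DKO minus Rb KO difference between single arrays lay beyond every E2f8 KO minus WT difference. This separation held in 327 genes of the table (2.52%), 214 above (1.65%) and 113 below (0.871%). The classes are a description. The additive shift and the interaction are made from the same WT and single-label arrays, so that noise in those arrays tilts genes towards less than additive. On the X chromosome lay 3 of the 10 called genes (Mid1, Eda2r and Fhl1), against 2.72% of the genes tested. Without both arrays low in Xist their interactions were 3.26, 2.19 and 2.07, and all 3 stayed called.

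**Figure D3:**
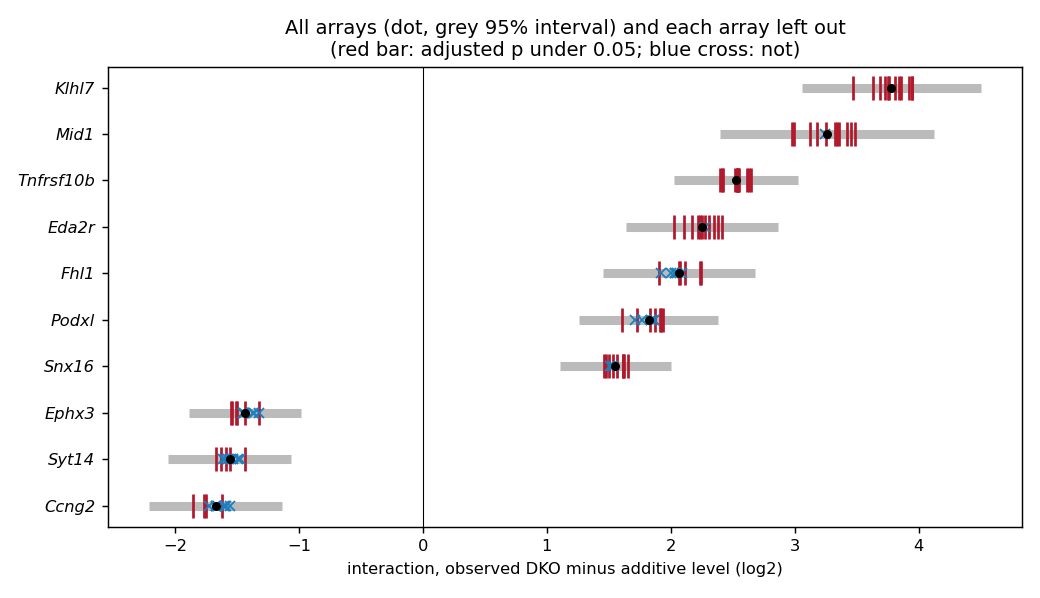
Interaction of the 10 called genes on the log2 scale. The black dot and grey bar give the value and 95% interval from 12 arrays, and the marks give the value with each array left out, as a red bar where still called and a blue cross where not. Every mark keeps the side of 0, and Klhl7 and Tnfrsf10b have no blue cross.

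The count of calls moved by over 1.5 times with single arrays. It was 2 without replicate 1 of WT and 5 without replicate 3 of WT. It was 4 and 6 without replicates 1 and 2 of E2f8 KO, 4 without replicate 2 of Rb KO and 6 without replicate 2 of DKO. It rose to 20 without replicate 1 of DKO and to 49 (20 above and 29 below) without replicate 1 of Rb KO, the array low in B cell markers, and the 10 genes were among both sets. On a linear scale, where the signals themselves and not their logs are added, 24 genes were called, and 5 of the 10 were among them (Tnfrsf10b, Snx16, Fhl1, Syt14 and Ephx3). Klhl7, Mid1, Eda2r, Podxl and Ccng2 kept their direction there with adjusted p between 0.0576 and 0.161.

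Beyond the 3 called genes, 7 further genes had the smallest p below the additive level, and none of them passed the test. Cat, of catalase, which breaks down hydrogen peroxide, had signals of 13.93, 14.09 and 14.04 among WT arrays, 13.10, 13.05 and 12.93 in the E2f8 KO arrays, 13.91, 13.73 and 13.83 in the Rb KO arrays and 12.12, 12.05 and 11.65 in the DKO arrays. DKO lay below E2f8 KO, and E2f8 KO below the others, with an interaction of -0.89 ± 0.16 (adjusted p = 0.101). Cd36, of a scavenger receptor, had -1.61 ± 0.32 (adjusted p = 0.159), and Lgmn, of a lysosomal protease, -1.19 ± 0.24 (adjusted p = 0.163). Cd74, of the invariant chain of MHC class II, had -2.42 ± 0.54 (adjusted p = 0.252), and B2m, of the light chain of MHC class I, had -0.52 ± 0.11 (adjusted p = 0.181). Mfhas1 had -1.65 ± 0.31 (adjusted p = 0.126) and Arl3, of a small GTPase of cilia, -1.004 ± 0.23 (adjusted p = 0.252). Cd74 is itself a member of the B cell marker list, whose mean was 1.42 ± 0.90 (SE) below its additive level. The part of these cells in the result was not tested. All 7 passed in some of 28 alternatives, Cat and Mfhas1 in 7 each (both with quantile normalization and array weights), Cd36 in 4 (among them the replicate block), Arl3 in 3, and Lgmn and B2m in 2 each. Cd74 passed the threshold without replicate 1 of Rb KO (-2.81, adjusted p = 0.0186) and with array weights (-2.30, 0.0280). It also passed with the B cell list mean, which contains Cd74, as a covariate (-1.47, 0.0302). On the linear scale Mfhas1 passed (adjusted p = 0.0294). The adjusted p there was 0.136 for Arl3, 0.368 for B2m and 0.692 for Cat. It was 0.837 for Cd74, 0.849 for Cd36 and 0.986 for Lgmn.

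None of the pocket protein or E2F genes had a called interaction. Rb1 was nearest, with an additive level of 11.30, DKO arrays between 11.98 and 12.23 and an interaction of 0.82 ± 0.16 (95% interval 0.47 to 1.17, adjusted p = 0.158). It passed the threshold without replicate 1 of Rb KO (0.88, adjusted p = 0.0307) and with array weights (0.79, adjusted p = 0.0209). E2f7, the other atypical repressor, had signals of 10.25, 9.82 and 9.82 among WT arrays, 11.18, 11.08 and 11.10 in the E2f8 KO arrays, 10.63, 10.37 and 9.53 in the Rb KO arrays and 11.95, 12.18 and 12.49 in the DKO arrays. The DKO arrays were the highest, and the interaction was 0.88 ± 0.35 (95% interval 0.12 to 1.63, adjusted p = 0.844). E2f3, an activator, had 0.85 ± 0.41 (adjusted p = 0.869). E2f1, the activator best known as a target of its own family, differed from WT by 0.99 ± 0.23 in E2f8 KO (adjusted p = 0.00893), by 1.06 ± 0.23 in Rb KO (adjusted p = 0.190) and by 1.95 ± 0.23 in DKO (adjusted p = 6.14e-05). The labels added to 2.05 in E2f1, and its interaction was -0.10 ± 0.33 with a 95% interval of -0.81 to 0.60. On the linear scale its interaction was 0.35, in units of the gene's mean signal, which cannot be compared in size with log2 values. E2f8 had 0.08 ± 0.27, E2f2 0.39 ± 0.17, E2f4 0.07 ± 0.21, E2f5 -0.23 ± 0.29 and E2f6 0.47 ± 0.52. Of the other pocket proteins, Rbl1 had 0.49 ± 0.31 and Rbl2 -0.28 ± 0.27.

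List members named below that were not called were picked with their values in view. The list of p53 targets, which guard against damaged DNA by arrest and death, held 2 of the 7 genes called above the additive level. Of its 26 measured genes, 2 were called above (Tnfrsf10b and Eda2r, against 0.0539% of all genes) and 0 below, and at an unadjusted p under 0.05 there were 6 above (3.29% of all genes) and 0 below. The median interaction was 0.24, against 0.00 over all genes. The list mean was 8.11, 8.01 and 7.97 among WT arrays, 8.50, 8.56 and 8.71 in the E2f8 KO arrays, 8.12, 8.08 and 7.96 in the Rb KO arrays and 9.003, 9.10 and 9.12 in the DKO arrays. E2f8 KO lay above WT and Rb KO in every array, and DKO above E2f8 KO. The mean of the list was 0.46 ± 0.10 (SE) above its additive level, with the 2 called genes among its members. That mean is therefore not separate evidence, and the list was chosen with earlier results of these data known. Of the 26 members, 21 lay above 0 and 5 below. Zmat3, an RNA-binding p53 target, had 1.78 ± 0.45 (adjusted p = 0.360), and Pidd1, of a death-domain protein, 0.98 ± 0.27 (adjusted p = 0.495). Other members lay closer to additive, with 0.24 for Phlda3, 0.12 for Mdm2, which restrains p53, and 0.22 for Ccng1. The median of the list stayed between 0.16 and 0.36 without single arrays.

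The list of erythropoietin and Stat5 signalling, the pathway that keeps erythroblasts alive, had 1 of 17 genes called above (Podxl, against 0.0539% of all genes) and 0 below, with 6 above (3.29% of all genes) and 0 below at an unadjusted p under 0.05. Its median was 0.08. The other 5 of these 6 genes were targets of Stat5 or of erythropoietin, and none passed the test over all genes. Pim1, of a survival kinase, was at 0.62 ± 0.14 (adjusted p = 0.252) and Cish, of a feedback inhibitor, at 1.34 ± 0.35 (adjusted p = 0.410). Socs3 had 0.74 ± 0.22, Erfe, of the hormone erythroferrone, 0.81 ± 0.29, and Osm 0.63 ± 0.27, with adjusted p between 0.607 and 0.847. A second probe set of Socs3, lower in mean signal and so not used, had -0.36 ± 0.21, in the opposite direction. The receptor and its kinase had interactions of 0.14 (Epor) and 0.08 (Jak2), and Bcl2l1 of -0.13.

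Genes of DNA replication lay above the additive level in nearly every case, yet by less than the spread between arrays allowed to be called. Of 52 measured genes, 49 had an interaction above 0 and 3 below, with a median of 0.32. Of these 52, 0 were called by limma in either direction, and 0 had an unadjusted p under 0.05. The list mean was 9.88, 9.22 and 9.36 among WT arrays, 10.13, 10.09 and 10.19 in the E2f8 KO arrays, 10.27, 9.78 and 9.24 in the Rb KO arrays and 10.70, 10.77 and 10.73 in the DKO arrays. The DKO arrays stood highest and close together, whereas WT and Rb KO overlapped widely. The interaction of the list mean was 0.32 ± 0.36 (SE), so that members, which vary together, do not count as separate evidence. Mcm8, a helicase gene, had 0.72, Mcm10 0.66, and Timeless, of the fork protection complex, 0.59, while Pcna, the sliding clamp, had -0.03 and Orc1 -0.01. On leaving out replicate 3 of Rb KO the median was 0.08, for replicate 1 of WT it was 0.13, for replicate 1 of Rb KO it was 0.56, and it was -0.04 with the B cell list mean as a covariate.

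Mitotic genes lay on both sides of the additive level, and the error of their list mean was too wide to show closeness to it. Of 47 measured genes, 19 lay above 0 and 28 below, the median was -0.03, and 0 were called by limma or had an unadjusted p under 0.05. The median difference from WT was 1.02 in E2f8 KO, -0.06 in Rb KO and 0.96 in DKO. The list mean had an interaction of 0.01 ± 0.40 (SE), from values of 10.37, 9.78 and 9.98 among WT arrays, 11.05, 10.99 and 10.96 in the E2f8 KO arrays, 10.62, 9.96 and 9.37 in the Rb KO arrays and 10.99, 10.96 and 10.91 in the DKO arrays. The DKO and E2f8 KO arrays nearly coincided. Without single arrays the median ran from -0.33 (replicate 3 of Rb KO) to 0.29 (replicate 1 of Rb KO), and it was -0.47 with the B cell covariate. Whether replication and mitotic genes differ from each other was not tested.

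**Figure D4:**
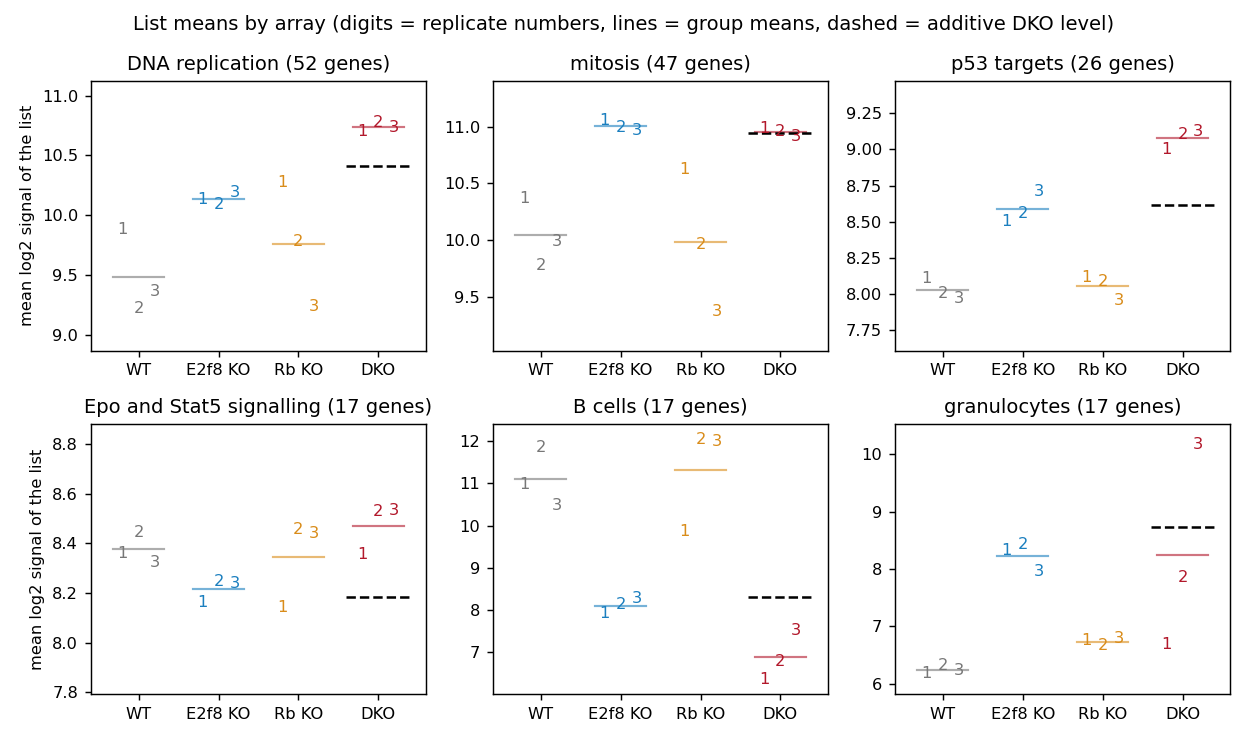
Mean log2 signal of 6 gene lists in each array, with digits for the replicate number, lines for group means and a dashed line for the additive DKO level. Means of the p53 list lie above the dashed level in all 3 DKO arrays, while mitosis lies on it, and B cell means scatter within WT and Rb KO.

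The genes of DNA damage and replication stress (34 measured) had 33 above 0, a median of 0.34 and 3 above (3.29% of all genes) and 0 below at an unadjusted p under 0.05. Its list mean had an interaction of 0.38 ± 0.31 (SE). Xrcc3, of homologous recombination, had 1.303 ± 0.24 (adjusted p = 0.104), and Hells, of a chromatin remodeler, 0.96 ± 0.39 (adjusted p = 0.845). Nucleotide synthesis (23 genes) had a median of 0.29 with 19 above 0, and the cyclins and kinases of G1/S (18 genes) a median of -0.03 with 9 above 0. In the histone list (20 genes) 15 lay above 0, with a median of 0.20 and 5 above (3.29% of all genes) at an unadjusted p under 0.05. These included H2bc4, at 1.16 ± 0.26 (adjusted p = 0.252), and the linker histones H1f2 and H1f3 at 1.04 ± 0.33 and 0.72 ± 0.29 (adjusted p = 0.665 and 0.845). H2bc4 differed from WT by -0.51 in E2f8 KO, -1.77 in Rb KO and -1.12 in DKO, so that the labels added to -2.28, and it was the single gene that passed the test for Rb KO against WT (adjusted p = 0.00487). None of these 4 lists had a called gene.

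In the lists of the red cell program 0 genes were called by limma, and the counts that follow are at an unadjusted p under 0.05 (3.29% above and 2.41% below over all genes). Heme synthesis (21 genes, 11 with an interaction over 0) had a median of 0.01 and 0 such genes. Iron handling (21 genes, 17 over 0) had a median of 0.15 with 3 above and 0 below. Red cell membrane and skeleton (29 genes, 25 over 0) had a median of 0.16 with 1 above and 1 below, and its list mean had an interaction of 0.16 ± 0.16 (SE). Terminal maturation and autophagy (35 genes, 23 over 0) had 0.08 with 2 above and 3 below. Erythroid transcription factors (33 genes, 22 over 0) had 0.11 with 1 above and 0 below. The globin list, with 4 measured genes, 3 of them over 0, had a median of 0.43 with 1 above and 0 below.

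Among markers of other spleen cells 0 genes were called by limma in these 9 lists. All 17 B cell markers lay below 0, with a median of -1.40 and 4 below at an unadjusted p under 0.05 (2.41% over all genes). H2-Aa had -2.05 ± 0.50 and H2-Ab1 -2.76 ± 0.72 (adjusted p = 0.314 and 0.410), and both passed without replicate 1 of Rb KO (adjusted p = 0.0307 and 0.0302). Plasma cell markers (8 genes) had a median of -0.32, with the joining chain gene Jchain at -2.55 ± 0.61 (adjusted p = 0.273). Granulocyte markers (17 genes) had -0.33, and their list mean was 6.69, 7.85 and 10.18 in the 3 DKO arrays. Medians were -0.10 for macrophages and monocytes (19 genes), -0.18 for T and NK cells (12 genes), 0.02 for megakaryocytes and platelets (9 genes) and -0.09 for dendritic cells (8 genes). At an unadjusted p under 0.05, plasma cells, megakaryocytes and dendritic cells had 1 gene below each, macrophages 1 above, and the remaining lists other than B cells 0. The lists of stem cells and of mast cells and basophils had 4 measured genes each and medians of -0.20 and -0.14. On the linear scale Cd74, H2-Aa and H2-Ab1 had adjusted p between 0.837 and 0.958.

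**Figure D5:**
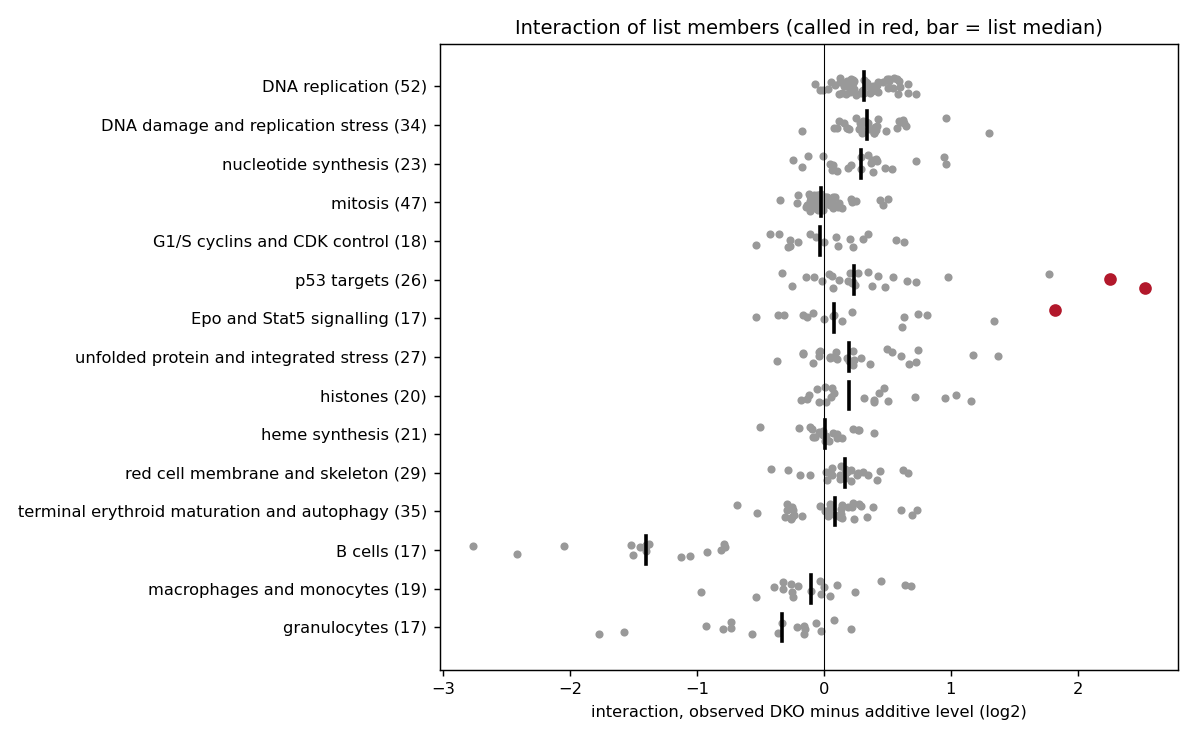
Interaction on the log2 scale of the measured members of 15 gene lists (1 point per gene, number of genes in parentheses). Black bars are list medians, at 0.32 for DNA replication, -0.03 for mitosis, 0.24 for p53 targets and -1.40 for B cells, and red points are the called genes Tnfrsf10b, Eda2r and Podxl.

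With the B cell list mean as a covariate, 131 genes were called, 115 above and 16 below, and with B cell and macrophage means together 195, 155 above and 40 below. All 10 genes called without covariates were among both sets, with Klhl7 at 3.86 and Tnfrsf10b at 2.69 under the first. The slope on such a covariate rests on differences within groups of 3 arrays, so that these counts lean on few arrays. The p53 and Stat5 lists then had medians of 0.31 and 0.34, and DNA damage 0.06. The B cell list had 0.13, but its own mean was the covariate, so that this value is set by the adjustment and is no result.

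E2F proteins bind short GC-rich promoter elements, and the promoters of a pair of called genes are shown with those of a pair of replication genes that hold such an element. The letters searched, on both strands, were TTTGGCGC, TTTCGCGC, TTTCCCGC and TTTGCCGC, in RefSeq promoters of 250 bases before to 50 after the gene start (GRCm38.p6). Of the 10 called genes 7 had a promoter in the table, and 0 of the 7 held the letters. They were found in 4.46% of 10291 tested genes with a promoter, in 2.6% of all 27025 genes with one, and in 17 of 42 genes (40.5%) of the DNA replication list. Among mitotic genes 2 of 39 (5.13%) held them, and among p53 targets 0 of 20. No match says only that these letters are not in this window. The regions below are Klhl7 at chr5:24100340-24100639 (plus strand), Eda2r at chrX:97377160-97377459 (minus), Mcm8 at chr2:132815891-132816190 (plus) and Pold3, of a subunit of DNA polymerase delta, at chr7:100121453-100121752 (minus). Each is written 5′ to 3′ on the strand of its gene, with a match in capitals. In Mcm8 the match is the reverse complement of TTTGGCGC and starts 39 bases after the gene start, and in Pold3 it starts 17 bases after it.
Klhl7: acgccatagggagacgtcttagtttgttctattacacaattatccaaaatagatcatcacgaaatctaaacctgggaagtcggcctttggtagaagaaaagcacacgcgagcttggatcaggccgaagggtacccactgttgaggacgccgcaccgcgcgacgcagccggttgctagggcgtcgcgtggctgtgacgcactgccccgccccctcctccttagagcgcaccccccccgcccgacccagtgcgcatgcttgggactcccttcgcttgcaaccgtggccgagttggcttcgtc
Eda2r: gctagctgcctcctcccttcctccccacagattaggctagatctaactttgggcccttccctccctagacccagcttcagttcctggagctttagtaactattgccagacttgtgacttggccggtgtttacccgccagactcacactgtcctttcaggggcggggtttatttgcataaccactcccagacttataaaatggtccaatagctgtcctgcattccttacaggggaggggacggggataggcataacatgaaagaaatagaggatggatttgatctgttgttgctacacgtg
Mcm8: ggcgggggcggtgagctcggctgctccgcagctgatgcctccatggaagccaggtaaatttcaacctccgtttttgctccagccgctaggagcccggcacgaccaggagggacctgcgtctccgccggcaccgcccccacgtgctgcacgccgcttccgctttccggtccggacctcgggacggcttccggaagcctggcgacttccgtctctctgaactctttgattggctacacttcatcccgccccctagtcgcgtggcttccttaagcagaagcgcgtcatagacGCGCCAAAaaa
Pold3: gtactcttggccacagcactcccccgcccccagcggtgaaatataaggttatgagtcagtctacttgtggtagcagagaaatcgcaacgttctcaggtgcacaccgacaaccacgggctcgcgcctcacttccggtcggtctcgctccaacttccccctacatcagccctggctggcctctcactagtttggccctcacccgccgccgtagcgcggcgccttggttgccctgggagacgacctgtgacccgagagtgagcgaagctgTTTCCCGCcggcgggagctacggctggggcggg
Klhl7 and Eda2r were called above the additive level at 3.78 and 2.25 and hold no match. Mcm8 and Pold3, each with 1 match, had interactions of 0.72 and 0.57 that were not called. These replication genes were picked, among those with a match, for the smallest p of the interaction. The pairs therefore allow no comparison.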

How the data were processed

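Signals came from 12 single-colour Affymetrix arrays, 3 per genotype label, in 1 deposited table. The authors' values are on a log2 scale, inferred from their range of 1.07 to 14.84, and MAS5 is named per the submitters' processing notes. Its version and how background and scale were set are, in the sources used here, not given. Of 35557 probe sets, 21789 map to 1 gene symbol, 1621 to more and 12147 to no symbol listed, and symbols were updated by gene number for 21698. The lowest 40% by mean signal (below 5.84) were removed, and the probe set with the highest mean stood for its gene, which left 12980 genes. No further normalization was made. Limma 3.58.1 in R 4.3.3 fitted 1 coefficient per label to all 12 arrays, with 8 residual degrees of freedom, variances moderated along mean signal, and p-values adjusted by Benjamini-Hochberg. The fit was tested on simulated data with noise drawn separately for each gene. In the arrays genes vary together, which that test did not cover. The number of arrays limits the precision.

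Called genes whose labels added to less than 0.5 in size were set apart as a class. Opposite single-label differences can add to as little, as in Syt14 (0.65 in E2f8 KO and -0.47 in Rb KO), so this class is not always unchanged in single labels. The other called genes were more than additive, less than additive or opposite by the signs of the additive and observed shifts. Named genes were the pocket protein and E2F genes, the called genes, the 10 smallest p below the additive level and others that are marked as picked with values in view. The comparison, gene lists and rules were chosen with earlier results of these data known. Lists are described by counts and medians, with no set test. Alternatives were other filters, normalizations, variance models, thresholds, scales and covariates, the replicate number as a block, and leaving out arrays.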

Additional observations from a re-analysis of the deposited data

Results flagged for a closer look

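The E2f8 label had a different effect with and without the Rb label, by limma's interaction test over 12980 genes, in 10 named genes. Above the additive level these were Klhl7 (3.78 on the log2 scale), Mid1 (3.26), Tnfrsf10b (2.53), Eda2r (2.25), Fhl1 (2.06), Podxl (1.82) and Snx16 (1.55). Below it were Ccng2 (-1.67), Syt14 (-1.56) and Ephx3 (-1.44). Only Klhl7 and Tnfrsf10b stayed called with each array left out in turn. Without replicate 1 of WT, 2 genes were called, and on the linear scale 5 of the 10 stayed called. Ephx3 passed the filter only through its E2f8 KO arrays. In each of the 10 genes the 3 DKO arrays lay on the stated side of the additive level. This nearly follows from the call and adds no support. Single arrays were not screened for outliers, since groups of 3 are too small for such a rule.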

How the results depend on the processing

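All 10 called genes kept their direction in every alternative in which they were tested. The count of 10 was also 10 without a filter, with the mean of probe sets, without a variance trend and on asking for a size of at least 1. It was 9 with arrays centred on their median, which ended the call of Ephx3, and 12 with quantile normalization, which ended that of Syt14. It was 6 (4 above) with the lowest 60% removed, 59 (43 above and 16 below) with array weights, whose estimation stopped short of its tolerance, and 24 (21 above) on the linear scale. At an adjusted p under 0.01 it was 4, with 4 above and 0 below (740 genes had an unadjusted p under 0.05). It was 131 (115 above and 16 below) with the B cell covariate and 195 (155 above and 40 below) with B cell and macrophage covariates. With the lowest 60% removed, Klhl7, Tnfrsf10b, Podxl and Ephx3 were filtered out and so not tested, and the other 6 stayed called. Why the count moved in the other settings was not tested. Without single arrays it ran from 2 to 49, from 2 to 20 above and from 0 to 29 below. The replicate number as a block gave 13 genes, 8 above and 5 below, which include all 10. Same-numbered arrays did not deviate together throughout (7 of 18 pairs with a correlation over 0.1, and 12 of 36 closest matches to an array of the same number). Their median correlation was 0.07, against -0.08 for pairs with different numbers. With 3 arrays per group this cannot show whether same-numbered samples share more than a number. With 3 arrays per group a median 95% interval of 0.56 to either side limits what can be detected.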

Other observations

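Tbk1 and Cgas were picked with their values in view, and neither passed the test. Tbk1, of a kinase downstream of DNA sensing in the cytosol, had a mean log2 signal of 7.79 in WT, 7.41 in E2f8 KO, 7.87 in Rb KO and 9.38 in DKO, with an interaction of 1.90 ± 0.33 (SE, n = 3 per group, adjusted p = 0.0878). Cgas, of the sensor itself, rose from 5.32 in WT to 8.15 in DKO (adjusted p = 3.07e-05), with an interaction of 1.96 ± 0.42 (adjusted p = 0.190). Cgas passed without replicate 1 of Rb KO (adjusted p = 0.0163), without replicate 1 of DKO (0.0396) and with array weights (0.0162). The WT, E2f8 KO and Rb KO means of Cgas all lie below the filter level of 5.84, so that it was kept through DKO alone and its values are set against signals near the floor. Over the interferon response list (22 measured genes) the median was 0.01, and 1 gene above (Cgas) and 1 below (Gbp3, at -0.92) had an unadjusted p under 0.05, against 3.29% and 2.41% of all genes.

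In the list of unfolded protein and integrated stress genes (27 measured), 4 were above (3.29% of all genes) and 0 below at an unadjusted p under 0.05, with 0 called and a median of 0.20. Trib3, a pseudokinase gene induced by amino acid stress, had 1.37 ± 0.28 (adjusted p = 0.168), and Chac1, which degrades glutathione, 1.18 ± 0.47 (adjusted p = 0.844). Outside that list, Hspa2, of a chaperone, had 1.22 ± 0.21 (adjusted p = 0.0878), Ubxn8 1.52 ± 0.28 (adjusted p = 0.104) and Car13, of a carbonic anhydrase, 1.59 ± 0.31 (adjusted p = 0.158). These 5 genes were also picked with their values in view.

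Of 7184 probe sets that passed the filter and carry no single gene symbol, limma called 0, and 585 had an unadjusted p under 0.05. Among genes in the main fit, 740 of 12980 (5.7%) had an unadjusted p under 0.05. In the fit of all probe sets that passed the filter, 9 of 21334 were called.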
